A study of Mus musculus with 30 samples.

Results

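Injury-specific genes were described here as genes that responded differently to stroke and to systemic inflammation in astrocytes 1 day after the insult. The quantity was a difference of 2 effects on the log2 scale, middle cerebral artery occlusion (MCAO) minus sham, less lipopolysaccharide (LPS) minus saline, so that a positive value means a larger rise or a smaller fall after stroke. It was computed for 15726 genes from the 18 arrays of 1 day among the 30 arrays of the series, namely 5 MCAO, 4 sham, 5 LPS and 4 saline arrays, chosen by their titles. The later MCAO and sham arrays of the series entered only the variance, the filter and the choice of probe sets. A difference of this kind can come from a rise in one injury or from a fall in the other, and the 2 effects were therefore read separately for every gene.

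All mice were labelled young adult males of the Tg(Aldh1l1-eGFP) OFC789Gsat line on a Swiss Webster background, in which the regulatory sequence of the astrocyte gene Aldh1l1 drives a green fluorescent protein. MCAO mice had the middle cerebral artery closed for 1 hr and then reperfused, a model of ischaemic stroke. Sham mice, their controls, had the surgery with no occlusion. LPS mice received 5 mg/kg of lipopolysaccharide from Escherichia coli O55:B55 into the peritoneum, and saline mice received endotoxin-free saline. Brains were dissociated with papain, cells were sorted by their fluorescence, and each sample gave about 20 ng of RNA, which went through a 2-cycle labelling onto an Affymetrix expression array. Arrays are described as biological replicates, but none is tied to a mouse, and p-values therefore reflect only how these samples vary.

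Astrocytes answer injury by a change of state called reactive gliosis, marked by the intermediate filament proteins GFAP and vimentin. After occlusion, astrocytes face oxygen and glucose deprivation, reperfusion and dying neighbours. After peripheral LPS, a component of the bacterial outer membrane sensed through Toll-like receptor 4, the brain is reached by cytokines, and interferon, antigen presentation and complement genes are typical targets. Both insults therefore share an inflammatory part, and they differ in the damage done to the tissue.

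Of the 15726 genes, 219 (1.39%) were called in the difference by limma at an adjusted p under 0.05, of which 109 (0.693%) were higher and 110 (0.699%) lower for stroke. At an unadjusted p under 0.05 there were 2010 genes. The median difference over all genes was -0.12, which moved to -0.04 after quantile normalisation and to -0.01 after median centring. The split of higher and lower calls moved with it, to 132 higher and 74 lower after quantile normalisation and to 147 higher and 74 lower after median centring. With the sample number in the descriptions as a block that pairs MCAO and sham arrays, and with MCAO array 1, which has no partner, left out, 54 were higher and 34 lower. The balance also depended on the model, with 70 higher and 22 lower when the 18 arrays were fitted alone. Of the 219 calls, 85 recurred in that fit. With array weights there were 711 higher and 1412 lower, and 216 of the 219 recurred. For the named genes whose alternative fits were read gene by gene, the calls that the block ended are given below with its adjusted p. Fitted alone, the 18 arrays ended the calls of Il6, Bdnf, Cd44, Slc1a5, Tapbp, Cfb, Cotl1, Mmab, Amigo2, Chrna7, Tenm4, Csnk2a2 and Diras2. They also ended those of Pla2g3, Nat8f4, Pnpla7, Entpd2, Nkain4, Rras, Arfgap1, Sort1 and Fmo5. Quantile normalisation ended those of Tapbp, Cd44, Tnfrsf12a, Sort1 and Nkain4, and 171 of the 219 calls recurred. Median centring ended those of Cd44, Nkain4, Amigo2 and Rras. The mean of the probe sets ended those of Mmab, Csnk2a2, Sort1 and Diras2, and 178 recurred. Without the low-value filter those of Cd44, Nkain4, Amigo2, Tnfrsf12a and Diras2 ended. With robust trended variances those of Nkain4, Rras and Diras2 ended.

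LPS array 5 stood apart from every other array, with a median intensity of 94 against 69 to 73 elsewhere and 5581 genes over 2-fold away from what the remaining LPS arrays averaged. On it the summed intensity of neutrophil and monocyte markers was 1297, against 555 to 861 on the other LPS arrays, and that of T and NK cell markers 1135, against 468 to 812. Astrocyte homeostatic genes summed to 173189 there, against 219447 to 321388 on the other LPS arrays, and the part of these levels in the results was not tested. Without it, 229 genes (1.46%) were higher and 243 (1.55%) lower, and 215 of the 219 genes were called again. The counts also moved by more than 1.5 times without other single arrays. They were 200 higher and 269 lower without LPS array 3, and 125 higher and 271 lower without saline array 1. They were 61 and 35 without MCAO array 1, and 65 and 57 without saline array 3. Higher and lower calls numbered 64 and 36 without saline array 4, 59 and 47 without sham array 1, 55 and 34 without sham array 2, and 60 and 39 without sham array 4. Lower calls alone moved to 60 without MCAO array 2 and to 67 without MCAO array 4.

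The labels and the sex-linked genes disagreed on 7 of the 18 arrays, all of which are labelled male. Xist, the RNA that silences an X chromosome in females, had a log2 level of 11.07 to 12.78 on LPS arrays 3, 4 and 5 and on saline arrays 2, 3 and 4, where the Y-linked genes Eif2s3y, Kdm5d and Uty lay between 3.58 and 4.75. MCAO array 4 had both, with Xist at 12.49 and the 3 Y-linked genes at 9.52, 6.92 and 6.67. With Xist as a covariate the difference had 128 higher and 109 lower calls. Of the 219 main calls, 184 recurred there, and among the named genes read gene by gene those of Tnfrsf12a, Diras2 and Rras ended. LPS arrays 4 and 5 and saline arrays 3 and 4 also carry sample numbers from 13 to 16 in the descriptions, while the other injection arrays carry 3 to 6. With that range of numbers as a covariate there were 187 higher and 198 lower calls, and all 219 main calls recurred. The LPS effect of the 219 genes kept its sign in 199 when only the injection arrays numbered 3 to 6 were fitted, and in 183 with those numbered 13 to 16. It kept its sign in 180 in the arrays with low Xist, which hold 2 LPS arrays and 1 saline array. These fits share arrays with the whole, and the counts are a description. They also hold fewer arrays. The fit with the injection arrays numbered 3 to 6 ended many calls of named genes, among them Sphk1, Endou, Lgi1, Scel, Maob, Cmtm3, Cobll1, Hbegf and Rrp12. The fit with those numbered 13 to 16 ended others, among them Tapbpl and Tnc.

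Astrocyte identity was checked by Aldh1l1, the folate enzyme whose regulatory sequence drives the reporter. Its log2 level was 12.31 to 12.62 on MCAO arrays, 12.71 to 12.85 on sham arrays, 11.13 to 13.71 on LPS arrays and 12.29 to 13.36 on saline arrays, and its difference of effects was -0.38 (adjusted p = 0.802). Of 11 lists of markers of other cells a sort could hold, 0 had a member called in the difference by limma. At an unadjusted p under 0.05 at most 2 members of any marker list passed, 1 pericyte gene was called by limma without LPS array 5, and the lists' median differences ran from -0.81 in oligodendrocytes to 0.06 in pericytes. The summed intensity of 11 endothelial markers was 1726 to 10371 on MCAO arrays, against 3199 to 10892 on sham arrays, and 654 to 1573 on LPS arrays, with mean log2 levels of 5.68 to 6.48, against 5.32 to 5.88 on saline arrays. The endothelial levels were higher on surgery than on injection arrays. Oligodendrocyte markers had mean log2 levels of 8.29 to 10.1 on MCAO, 8.26 to 10.4 on sham, 7.06 to 9.31 on LPS and 6.94 to 8.12 on saline arrays. Of 10 measured, 0 had a positive difference, against 37.1% of all genes, and 2 fell after MCAO. Their median difference was -1.12 without LPS array 5. The part of either list in the results was not tested. In such bulk samples, fewer cells of a kind and less RNA per cell cannot be told apart.

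The main share of the called genes moved after stroke and not detectably after LPS. MCAO changed 1991 genes in all (12.7%), 1021 higher (6.49%) and 970 lower (6.17%), and LPS changed 489 (3.11%), 372 higher (2.37%) and 117 lower (0.744%). Among the 109 genes higher in the difference, the MCAO effect was called in 103 (94.5%) and the LPS effect in 9 (8.26%). Among the 110 genes lower in the difference, the MCAO effect was called in 83 (75.5%) and the LPS effect in 27 (24.5%). MCAO and sham arrays did not overlap for 103 of the 109 and 77 of the 110, against 27.3% of all genes, and LPS and saline arrays for 9 and 23, against 2.75%. These arrays also make the difference itself, so the shares describe its parts and are no separate test. The SE of a gene was the same for both effects because 1 variance was fitted over all groups, whereas the median SD between arrays was 0.18 in MCAO, 0.151 in sham, 0.53 in LPS and 0.316 in saline.

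By the calls of the 2 effects, 99 genes rose after MCAO with no call after LPS, 76 fell after MCAO with no call after LPS, 20 rose after LPS with no call after MCAO, and 5 fell after LPS with no call after MCAO. A further 4 genes rose after both insults by different amounts, 7 moved in opposite directions, and 8 had neither effect called. An effect that misses the threshold is not an absent one. Below, "after stroke alone", "after MCAO alone" and "after LPS alone" mean only that the other effect was not called. The 95% interval of the LPS effect lay within 1 log2 unit of 0 for 65 of the 99 genes and for 58 of the 76, and that of the MCAO effect for 14 of the 20 and 2 of the 5. Without LPS array 5 these 4 classes held 209, 170, 45 and 10 genes. Under the block that pairs the surgery arrays they held 50, 23, 7 and 1.

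**Figure D1:**
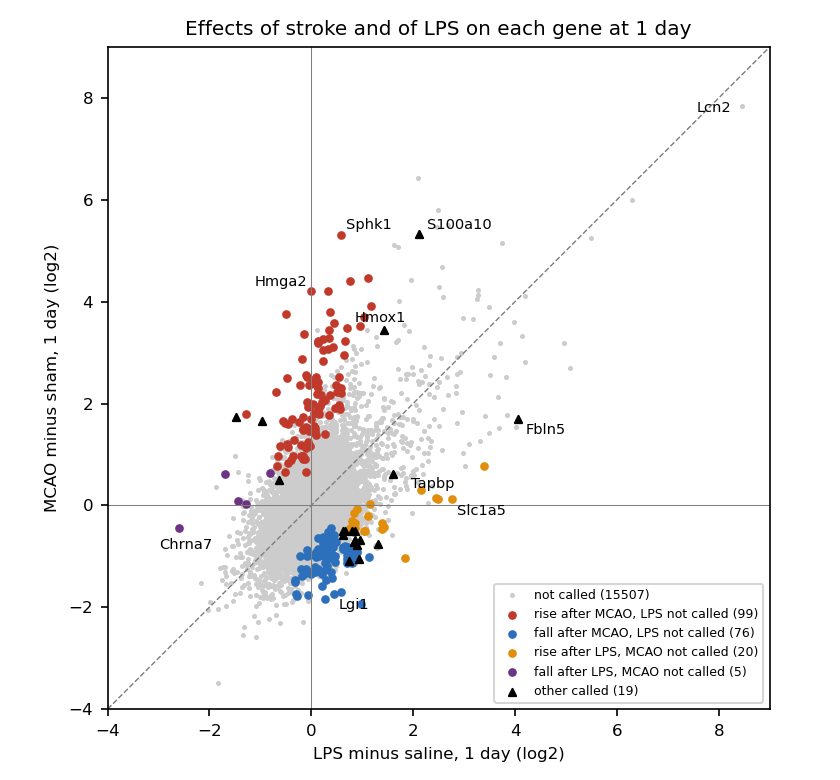
Effect of MCAO against sham (vertical axis) and of LPS against saline (horizontal axis) on each of 15726 genes at 1 day, both in log2, with the 219 genes called in the difference coloured by class. The 99 red points lie along the vertical axis, the 20 orange points along the horizontal axis, and the dashed line marks equal effects.

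**Figure D2:**
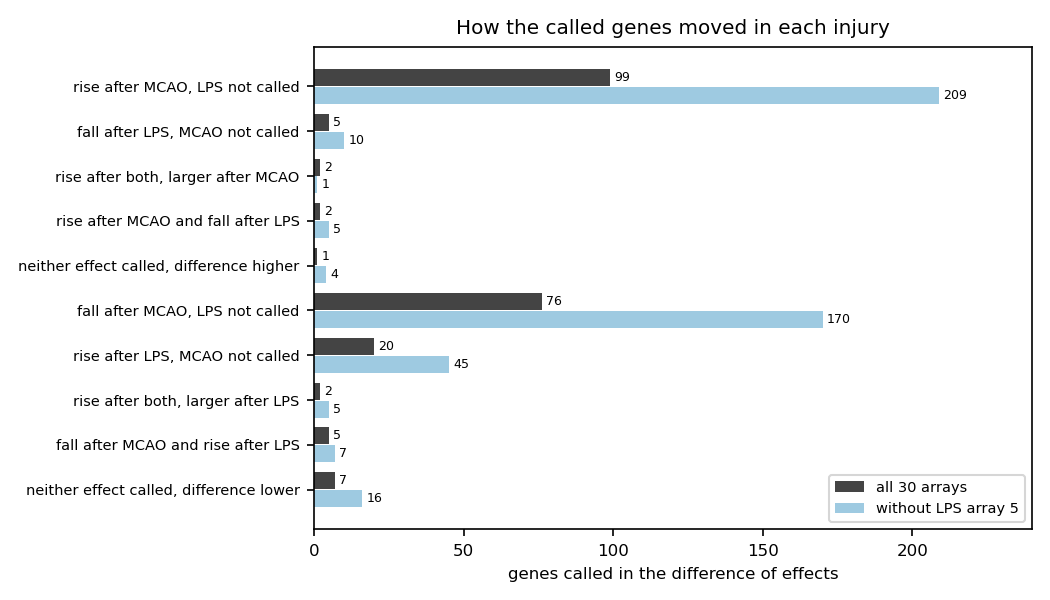
Genes called in the difference (horizontal axis) by how each injury moved them, over all 30 arrays and without LPS array 5. The 2 classes called after MCAO with no call after LPS held 99 and 76 genes with all arrays, and 209 and 170 without that array.

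The genes that rose after stroke alone had a median MCAO effect of 1.97 and a median LPS effect of 0.05, and 53 of the 99 had an LPS effect above 0. Hmga2 was a clear case. It encodes a chromatin protein of embryonic and regenerating tissue that is low in adult brain. Its log2 level was 10.26, 8.57, 9.22, 9.05 and 8.69 on the MCAO arrays, against 4.95, 5.00, 4.81 and 5.04 on the sham arrays, and 5.17, 5.00, 5.09, 5.13 and 5.52 on the LPS arrays, against 4.91, 5.46, 5.25 and 5.13 on the saline arrays. All 13 arrays without stroke lay near the low-value filter of 5, so the size of its 18.5-fold rise after MCAO is uncertain, while no MCAO array came near them. The difference of effects was 4.21 (SE 0.60, adjusted p = 0.000233).

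Sphk1, the kinase that makes the lipid signal sphingosine 1-phosphate, had the largest difference of the 219 genes, 4.74 (SE 0.90, adjusted p = 0.00616). It had a log2 level of 12.36, 10.85, 10.90, 11.08 and 10.36 on the MCAO arrays, against 5.67, 5.46, 6.51 and 5.52 on the sham arrays. On the LPS arrays it was 8.49, 6.02, 5.49, 4.95 and 5.21, against 5.32, 5.91, 5.13 and 5.46 on the saline arrays. LPS array 1 was high, the other 4 LPS arrays lay in or near the saline range, and all of them were below the MCAO arrays. Lgals3, the carbohydrate-binding protein galectin-3 of phagocytes and reactive glia, differed by 4.26 (SE 0.84, adjusted p = 0.00815), with a MCAO effect of 3.76 and an LPS effect of -0.51.

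The smallest adjusted p of the 219 genes was that of Hmox1, which encodes haem oxygenase 1, the enzyme that breaks down haem and a target of the antioxidant factor NRF2. Its log2 level was 10.84, 9.85, 10.88, 9.65 and 10.12 on the MCAO arrays, against 6.51, 6.38, 6.67 and 6.32 on the sham arrays, and 7.14, 6.51, 6.66, 6.77 and 7.06 on the LPS arrays, against 6.04, 6.64, 6.86 and 6.32 on the saline arrays. The MCAO arrays stood 13.9-fold above sham, and the LPS and saline arrays overlapped (difference 3.44, SE 0.39, adjusted p = 3.76e-05). Srxn1, sulfiredoxin, which restores oxidised peroxiredoxins, had 12.07, 10.88, 11.87, 10.46 and 11.64 on the MCAO arrays, against 7.80, 7.61, 8.41 and 7.91 on the sham arrays. Its LPS arrays, at 9.20, 9.29, 8.68, 8.55 and 9.14, overlapped the saline arrays, at 9.22, 8.60, 8.53 and 8.14 (difference 3.10, SE 0.44, adjusted p = 0.000223). Of 13 NRF2 targets measured, 6 rose and 0 fell after MCAO and 1 rose after LPS. In the difference 2 of the 13 were called, both higher, and 4 without LPS array 5, and the median difference was 0.33 against -0.12 over all genes.

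Amino acid and unfolded protein stress genes leaned the same way. Chac1, which degrades glutathione and is a target of the stress factor ATF4, had a MCAO effect of 3.37 and an LPS effect of -0.15 (difference 3.52, SE 0.54, adjusted p = 0.000658). It was the 1 gene called among 16 of the ATF4 and unfolded protein response list (2 without LPS array 5, and 2 without sham array 3), of which 8 rose after MCAO and 0 after LPS, and 15 of 16 had a positive difference against 37.1% of all genes. Heat shock proteins had 14 of 14 positive differences, with 0 called by limma, 4 higher at an unadjusted p under 0.05, and 1 called without LPS array 5. Their median difference was 0.71, and 0.35 without LPS array 5. Cryab, a small heat shock protein of astrocytes, had effects of 1.10 after MCAO and -0.61 after LPS.

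Signals that act on other cells formed another part. Clcf1, a cytokine of the interleukin-6 family that signals through the CNTF receptor, had 9.79, 9.17, 8.95, 8.76 and 8.77 on the MCAO arrays, against 4.58, 4.81, 5.29 and 4.81 on the sham arrays. It had 6.32, 5.25, 5.13, 5.04 and 6.36 on the LPS arrays, against 4.81, 5.39, 5.91 and 5.09 on the saline arrays (difference 3.90, SE 0.63, adjusted p = 0.00101). The stroke arrays were apart from all others, whose levels lay near the filter. Il6 itself had 8.73, 10.17, 7.79, 10.61 and 7.55 on the MCAO arrays, against 4.64, 4.39, 4.86 and 4.17 on the sham arrays. LPS array 3 also held it, at 7.32, and the other LPS arrays had 5.70, 4.32, 4.32 and 4.91, with no saline array above 4.32. Its difference of 3.35 (SE 0.79, adjusted p = 0.0304) lost the call in 10 of 18 fits that left out 1 array.

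The call was not shared by the whole family. Of 15 interleukin-6 family and STAT3 genes, 9 rose and 1 fell after MCAO and 2 rose after LPS, and Clcf1 and Il6 were those called in the difference, of which 1 was called without saline array 3. Osmr, the oncostatin M receptor, had effects of 3.68 and 2.98, and Bcl3, a nuclear partner of NF-kappaB, had 2.99 and 2.93, both called after each insult. Lif, leukaemia inhibitory factor, rose by 2.45 after MCAO and had an LPS effect of 0.69. Socs3, the feedback inhibitor of this pathway, rose by 2.39 after MCAO and had an LPS effect of 0.76. Neither Lif nor Socs3 was called in the difference.

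Of 16 growth factor ligands, 3 were called higher and 0 lower, and the median difference was 0.01, or -0.11 without saline array 3. Bdnf, a neurotrophin, had 11.15, 9.80, 8.78, 9.85 and 8.75 on the MCAO arrays, against 6.94, 7.00, 7.65 and 7.37 on the sham arrays, and 8.05, 6.69, 6.69, 6.66 and 6.46 on the LPS arrays, against 6.52, 6.75, 6.97 and 6.85 on the saline arrays. Apart from LPS array 1, LPS and saline arrays overlapped (difference 2.29, SE 0.49, adjusted p = 0.0165). Hbegf and Ereg, ligands of the epidermal growth factor receptor family, had MCAO effects of 1.61 and 2.19 and LPS effects of -0.52 and 0.11 (adjusted p = 0.00749 and 0.00194). Gdf10 fell after both, by 3.50 after MCAO and by 1.84 after LPS.

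Fosl1, which encodes the AP-1 subunit FRA1, was the 1 gene called among 19 immediate early and AP-1 genes. Its log2 level was 9.57, 8.66, 9.06, 8.61 and 8.98 on the MCAO arrays, against 5.58, 5.49, 6.04 and 5.67 on the sham arrays, and 5.73, 5.29, 5.29, 5.86 and 6.34 on the LPS arrays, against 5.09, 5.32, 6.04 and 5.46 on the saline arrays. The MCAO arrays were 9.69-fold above sham, and LPS overlapped saline (difference 3.06, SE 0.43, adjusted p = 0.000223). Fos and Jun, the best known members, had MCAO effects of 0.02 and 0.26 and LPS effects of 0.07 and 0.39.

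The DNA before the start of the higher genes is shown for the AP-1 motif, which the protein of Fosl1 can bind. Whether that protein acts on these genes was not tested. Promoters of RefSeq, 250 bases before to 50 after each start in build GRCm38.p6, matched 82 of the 109 higher genes, 84 of the 110 lower genes and 12562 of all genes tested. The AP-1 motif was searched as TGANTCA, which reads the same on both strands. It was found in 12 of the 82 higher genes (14.6%), in 4 of the 84 lower genes (4.76%) and in 6.86% of all genes tested, with no test of these shares. A gene with several starts counted once if any of its windows held the motif. AP-1 is 1 of 8 motifs searched on both strands, and was chosen for printing after these shares were seen. The gamma-activated site TTCNNNGAA was in 9.76% of higher genes and 8.2% of all genes tested, the interferon-stimulated response element in 3.66% and 3.45%, and the NF-kappaB motif in 2 higher genes (2.44%) and 0.525%. The antioxidant response element was in 2.44% and 3.28%, and the CRE and ATF motif TGACGTCA in 1.22% and 3.15%. The sterol regulatory element and the heat shock element were in 0 of the 82 higher genes, and in 0.223% and 0.549% of all genes tested. A match is a description of the letters and no evidence of binding. The 13 sites of the 12 higher genes follow on the strand of the gene, with the motif in capitals and up to 10 bases on each side.
Sphk1: agcgtgtcgcTGAGTCAccttctcgga
Srxn1, far site: tcggagggccTGAGTCAccacgctgtg
Srxn1, near site: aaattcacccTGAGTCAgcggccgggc
Il6: cTGAGTCActtttaaaga
Bdnf: cccacaaaaaTGAATCAaggtaatttc
Plaur: cccctggagcTGACTCActctttagca
Col6a1: gctgatgctgTGACTCActcagctttg
Tfpi2: gcctaaggcgTGAATCAgccacgttat
Lmna: tggctgtcagTGACTCAgtgt
Myo1c: ctggaaaaccTGACTCAggcggagccc
6430553K19Rik: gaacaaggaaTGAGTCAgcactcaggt
Cenpt: tcgcgagactTGACTCAaaataggcgg
Diras2: gaatgattttTGATTCAtttaattttc

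The motif of Sphk1 lies 50 bases before 1 of its 5 RefSeq starts, 3 of which have no match in their windows, in the stretch chr11:116531777-116531803 on the plus strand, and those of Srxn1 102 and 45 bases before it, in chr2:152105412-152105438 and chr2:152105469-152105495 on the plus strand. The 250 bases before the start of Srxn1, chr2:152105274-152105523, are printed whole because both sites lie within them.
Srxn1: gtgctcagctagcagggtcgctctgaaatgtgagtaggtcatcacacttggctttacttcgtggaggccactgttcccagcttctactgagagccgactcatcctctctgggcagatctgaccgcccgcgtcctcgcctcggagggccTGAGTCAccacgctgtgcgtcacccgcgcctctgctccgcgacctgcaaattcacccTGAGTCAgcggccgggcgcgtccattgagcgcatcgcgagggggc

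Of these 12 genes, Diras2 differed from the rest in that its positive difference came from a fall after LPS. The Lmna site lies after the start and the other 12 sites before it.

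Matrix, adhesion and cytoskeleton genes were the most numerous listed members. Of 24 cytoskeleton, annexin and S100 genes, 19 rose after MCAO and 8 after LPS. In the difference 5 were called higher and 0 lower, and 21 were positive, against 37.1% of all genes. Flnc, the actin crosslinker filamin C, was highest among them after Lgals3 and S100a10, with a MCAO effect of 3.59 and an LPS effect of 0.45 (difference 3.13, SE 0.46, adjusted p = 0.000318). The list's other called members, Tubb6 and Nes, were a tubulin, at 3.53 and 0.96, and the progenitor filament nestin, at 1.96 and 0.17. Of 29 matrix and proteolysis genes, 15 rose and 2 fell after MCAO, 4 rose after LPS, and 5 were called higher in the difference. Without saline array 3, 2 rose after LPS and 3 were called higher.

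Tnc, the matrix glycoprotein tenascin C of wounds, showed how a difference is built from both sides. The measured log2 levels were 9.34, 9.62, 9.35, 9.64 and 8.58 on the MCAO arrays, against 7.75, 7.37, 7.16 and 7.78 on the sham arrays. On the LPS arrays they were 6.38, 6.29, 6.87, 5.75 and 8.19, against 8.39, 7.69, 7.81 and 8.04 on the saline arrays. All MCAO arrays were above sham, and LPS arrays 1 to 4 were below all saline arrays while LPS array 5 lay among them. Its MCAO effect was 1.79 (adjusted p = 0.00185) and its LPS effect -1.29 (adjusted p = 0.0632), which gave a difference of 3.08 (SE 0.54, adjusted p = 0.00222). Sdc1, the heparan sulphate proteoglycan syndecan 1, differed by 1.88 (adjusted p = 0.019). Cd44, the hyaluronan receptor, differed by 2.67 (adjusted p = 0.0487), a call lost in 13 of 18 fits without 1 array, among them the fit without LPS array 5 (adjusted p = 0.0532), and under the block (adjusted p = 0.144).

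Genes of ribosome assembly showed small shifts of 1 sign. All 24 measured had a positive difference, against 37.1% of all genes, with a median of 0.69, and 18 rose after MCAO and 0 after LPS. The 1 called with all arrays was Rrp12, a factor for ribosomal subunit maturation, at 8.97, 8.12, 8.49, 8.62 and 8.28 on the MCAO arrays, against 7.04, 6.77, 6.55 and 6.54 on the sham arrays, and 7.54, 6.52, 7.11, 6.58 and 7.20 on the LPS arrays, against 6.38, 7.04, 6.55 and 6.63 on the saline arrays (difference 1.43, SE 0.29, adjusted p = 0.0103). Without LPS array 5, 8 of the 24 were called higher.

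**Figure D3:**
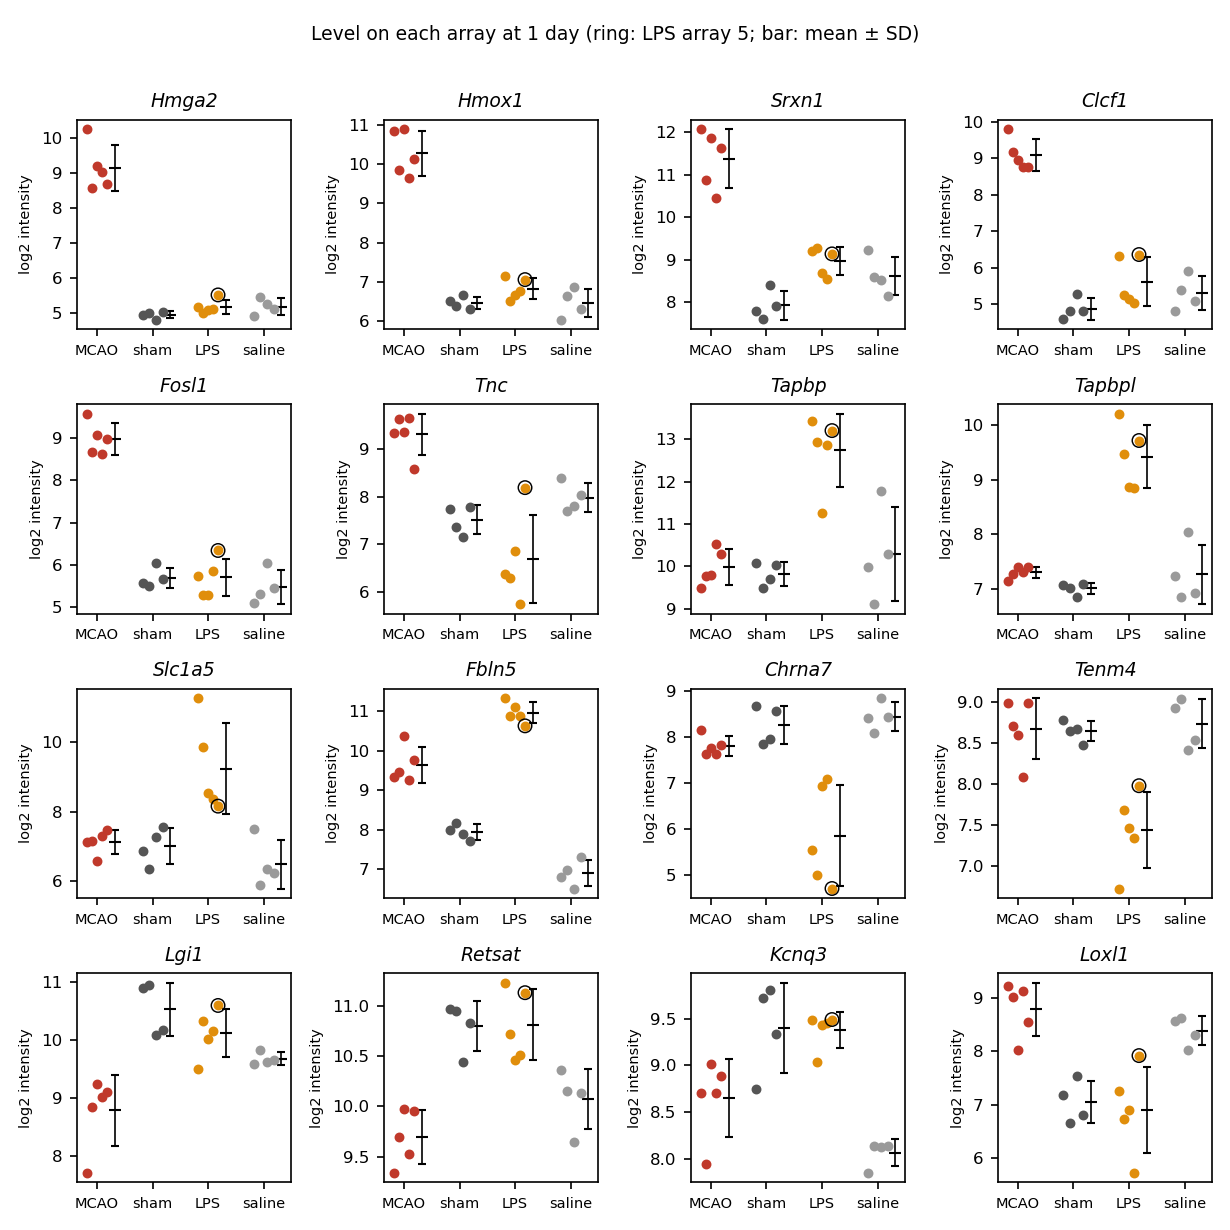
Log2 intensity (vertical axis) of 16 genes on each MCAO, sham, LPS and saline array of 1 day, with the mean and SD of each group and LPS array 5 ringed. In Hmga2, Hmox1, Srxn1, Clcf1 and Fosl1 the 5 MCAO arrays stand above the other 13, and in Tapbp, Tapbpl and Slc1a5 the LPS arrays are raised.

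The 20 genes that rose after LPS alone had a median MCAO effect of -0.33 and a median LPS effect of 1.14. They included genes of antigen presentation. Tapbpl encodes a relative of tapasin that edits peptides on class I molecules. Its log2 level was 7.14, 7.27, 7.39, 7.31 and 7.39 on the MCAO arrays, against 7.06, 7.02, 6.85 and 7.09 on the sham arrays, and 10.21, 9.47, 8.86, 8.85 and 9.72 on the LPS arrays, against 7.24, 6.85, 8.04 and 6.92 on the saline arrays. All LPS arrays were above saline, a rise of 4.47-fold, and the MCAO arrays lay above sham by only 0.30, which was not called (difference -1.86, SE 0.33, adjusted p = 0.00213). Tapbp, tapasin itself, had 9.48 to 10.54 on the MCAO arrays, against 9.49 to 10.08 on the sham arrays, and 13.44, 12.94, 11.26, 12.88 and 13.21 on the LPS arrays, against 9.99, 9.11, 11.79 and 10.30 on the saline arrays. MCAO overlapped sham, and saline array 3 lay above LPS array 3 (difference -2.30, SE 0.55, adjusted p = 0.0308, lost in 8 of 18 fits without 1 array, and 0.109 under the block).

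Of 14 class I antigen presentation genes, 1 rose after MCAO and 9 after LPS, 2 were called lower in the difference and 0 higher, and the median difference was -1.18. Saline array 3 held an interferon profile of its own. Its mean log2 level over the 14 genes was 9.85, against at most 7.83 on the other saline arrays, and over 9 interferon-inducible GTPases 10.8, against at most 7.25. Without it, 6 of the 14 were called lower and 12 rose after LPS, and the median difference was -1.48. The GTPases, which defend cells against intracellular pathogens, had 0 called in the difference by limma with or without that array, and 0 at an unadjusted p under 0.05, with a median of -0.75 and of -1.42 without it. The wider set of 28 type I interferon-stimulated genes rose after MCAO in 6 and after LPS in 16, and 0 were called in the difference by limma, with 3 lower at an unadjusted p under 0.05. Oasl2, for example, had effects of 2.51 after MCAO and 3.82 after LPS, both called.

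Complement genes had the lowest median difference of the 21 programme lists, -1.51 over 8 genes. After MCAO 3 rose and 1 fell, after LPS 5 rose, and 1 was called lower in the difference (3 without LPS array 5). Cfb, factor B of the alternative pathway, had 5.49, 5.81, 5.39, 5.52 and 5.78 on the MCAO arrays, against 5.98, 6.39, 5.49 and 5.95 on the sham arrays, and 7.78, 8.38, 6.21, 6.23 and 7.64 on the LPS arrays, against 5.86, 6.11, 5.81 and 5.64 on the saline arrays. The LPS arrays were all above saline, and the MCAO arrays overlapped sham (difference -1.75, SE 0.43, adjusted p = 0.036, lost in 10 of 18 fits without 1 array, and 0.111 under the block). Serping1, the C1 inhibitor, rose by 2.70 after MCAO and by 5.09 after LPS, and its difference of -2.38 was not called (adjusted p = 0.108).

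Genes of other roles were in the same class. Slc1a5, a neutral amino acid exchanger, had 6.57 to 7.47 on the MCAO arrays, against 6.34 to 7.55 on the sham arrays, and 11.27, 9.86, 8.53, 8.38 and 8.16 on the LPS arrays, against 7.49, 5.88, 6.34 and 6.23 on the saline arrays. LPS exceeded saline on every array, and MCAO overlapped sham (difference -2.64, SE 0.60, adjusted p = 0.0233). Its call was lost without sham array 4 and without saline arrays 2, 3 or 4, and under the block (adjusted p = 0.0584). Endou, an endoribonuclease, had a MCAO effect of 0.13 and rose by 2.48 after LPS (difference -2.35, SE 0.43, adjusted p = 0.00367). Cotl1, an actin-binding protein, and Mmab, an enzyme of cobalamin metabolism, differed by -1.55 and -1.54. Cotl1 lost its call in 6 of 18 fits without 1 array and under the block (adjusted p = 0.0553), and Mmab without sham array 2 or saline array 4.

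Sult1a1, a sulfotransferase, differed in its controls as well. It had 9.90, 9.69, 10.41, 9.57 and 10.33 on the MCAO arrays, against 10.35, 11.37, 11.39 and 10.93 on the sham arrays, and 10.67, 11.15, 11.62, 10.85 and 10.29 on the LPS arrays, against 9.49, 10.06, 8.08 and 8.67 on the saline arrays. Sham was as high as LPS, and the low groups were saline and MCAO. Its difference of -2.87 (adjusted p = 0.0106) came with an uncalled MCAO effect of -1.03 (adjusted p = 0.109), an LPS effect of 1.84 (adjusted p = 0.0105), and a sham level 1.94 above saline (adjusted p = 0.0118). It was the 1 called among 17 glucocorticoid-responsive genes, of which 2 rose after MCAO and 4 after LPS (2 without saline array 3). Fkbp5, a co-chaperone of the glucocorticoid receptor, was 3.20 higher in sham than in saline (adjusted p = 0.015), with effects of 1.55 after MCAO and 4.03 after LPS.

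Controls were compared for all called genes. Sham and saline differed in 804 genes (5.11%), 459 higher (2.92%) and 345 lower (2.19%) in sham. Among the 109 higher genes, 7 were called apart between sham and saline, and 107 between MCAO and LPS, in which 3161 genes (20.1%) differed. Among the 110 lower genes, 32 were called apart between the controls and 82 between the injured groups. For 25 of the 110, and for 2 of the 109, only the controls were called apart. In the main fit 39 of the 219 genes had sham and saline called apart. Under the block this held for 3 of the genes called there. In that fit the sham level is that of a single pair of surgery arrays and not the group mean. The 2 counts are therefore not of the same contrast. Surgery and injection arrays differ in procedure as well as in insult, which cannot be told apart in a direct comparison of the injured groups. The controls also differed in Xist, at 6.38 to 6.88 on sham arrays and 12.45 to 12.69 on saline arrays 2, 3 and 4. Only saline array 1 was low, at 6.11, so procedure and Xist level cannot be fully told apart between sham and saline.

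The 76 genes that fell after stroke alone had a median MCAO effect of -1.01 and a median LPS effect of 0.29, and 62 of the 76 had an LPS effect above 0. Lgi1, a secreted protein of the synapse whose loss causes epilepsy, had 7.71, 8.85, 9.24, 9.02 and 9.10 on the MCAO arrays, against 10.89, 10.95, 10.09 and 10.16 on the sham arrays, and 9.49, 10.32, 10.02, 10.15 and 10.59 on the LPS arrays, against 9.59, 9.83, 9.62 and 9.66 on the saline arrays. The MCAO arrays were below all 13 others, and LPS overlapped saline (difference -2.18, SE 0.36, adjusted p = 0.0015). Pla2g3, a secreted phospholipase, differed by -2.91 (SE 0.66, adjusted p = 0.0233), with effects of -1.93 after MCAO and 0.98 after LPS. Scel, sciellin of the cornified envelope, differed by -2.29, Nat8f4, an acetyltransferase family member, by -2.11, and Pnpla7, a lysophospholipase, by -1.93. Pla2g3 lost its call without MCAO array 1, sham arrays 2 or 4, or saline arrays 3 or 4, and under the block (adjusted p = 0.0719). Pnpla7 lost it in 9 of 18 fits without 1 array and under the block (adjusted p = 0.0857).

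Of 28 astrocyte homeostatic genes, 11 fell and 0 rose after MCAO, and 1 fell after LPS. In the difference 26 were negative, and 7.14% were positive, against 37.1% of all genes. Of the 28, 2 were called lower, with 4 without LPS array 5 and 1 without saline array 3. Entpd2, which hydrolyses extracellular ATP, had 10.64, 11.70, 11.31, 11.23 and 11.59 on the MCAO arrays, against 12.79, 12.58, 12.22 and 12.62 on the sham arrays, and 12.16 to 12.44 on the LPS arrays, against 12.19 to 12.57 on the saline arrays. The MCAO arrays were again lowest (difference -1.16, SE 0.24, adjusted p = 0.0146). Nkain4, which interacts with the sodium pump, differed by -1.71 (adjusted p = 0.0486) and lost the call in 12 of 18 fits without 1 array and under the block (adjusted p = 0.136). The glutamate transporters had smaller values, with MCAO effects of -0.22 for Slc1a2 and -0.52 for Slc1a3 and LPS effects of 0.13 and 0.00. Of 19 cholesterol synthesis genes, 5 fell after MCAO and 1 after LPS. The difference was negative in 18 and positive in 5.26%, against 37.1% of all genes. By limma 0 were called, with 5 lower at an unadjusted p under 0.05. Without LPS array 5, 2 were called lower, and 1 without saline array 3 or without sham array 3.

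The remaining gene groups had 0 calls in the difference by limma. Cytokines and chemokines had a median difference of -0.08 over 23 genes, with 3 higher and 3 lower at an unadjusted p under 0.05, and Toll-like receptor and NF-kappaB genes -0.08 over 18, with 2 higher and 3 lower. Glycolysis and hypoxia genes had -0.09 over 18, with 0 higher and 2 lower, and cell cycle genes -0.06 over 29, with 0 in either direction. Synapse formation and engulfment genes had -0.25 over 16, with 1 higher and 3 lower. Without LPS array 5, limma called 2 Toll-like receptor and NF-kappaB genes lower, 1 glycolysis gene lower and 1 synapse gene higher. It called 1 cytokine gene lower without saline array 3 and 1 Toll-like receptor and NF-kappaB gene lower without sham array 3. The sign of the glycolysis median turned without sham array 3, to 0.02, and that of cell cycle genes without saline array 3, to 0.04.

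**Figure D4:**
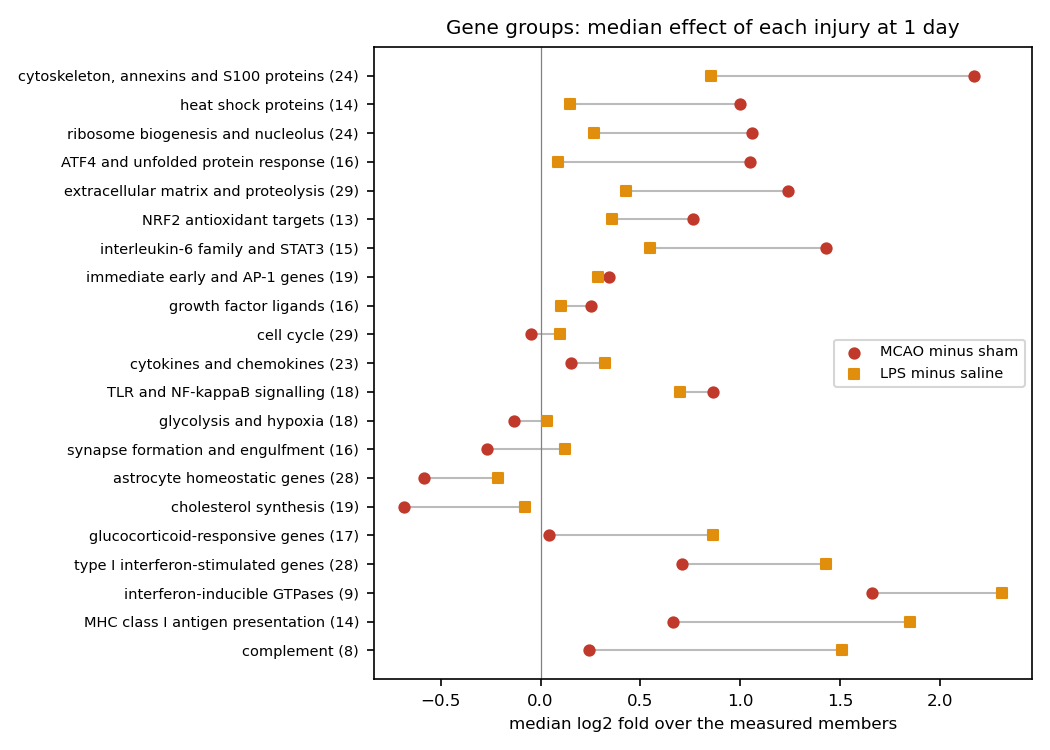
Median log2 effect of MCAO against sham (circles) and of LPS against saline (squares) over the measured members of 21 gene groups (numbers in brackets), ordered by the median difference. Cytoskeleton and ribosome groups have the MCAO median to the right of the LPS median, and MHC class I and complement groups have it to the left.

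Falls after LPS alone were few. Chrna7, the alpha 7 nicotinic acetylcholine receptor, had 8.16, 7.64, 7.77, 7.64 and 7.83 on the MCAO arrays, against 8.67, 7.86, 7.95 and 8.57 on the sham arrays, and 5.55, 5.00, 6.94, 7.08 and 4.70 on the LPS arrays, against 8.42, 8.09, 8.85 and 8.43 on the saline arrays. All LPS arrays were below all others, a 6.04-fold fall, and MCAO overlapped sham (difference 2.14, SE 0.48, adjusted p = 0.0222). Tenm4, a teneurin of the cell surface, had 8.08 to 8.99 on the MCAO arrays, against 8.48 to 8.78 on the sham arrays, and 6.73, 7.69, 7.47, 7.34 and 7.98 on the LPS arrays, against 8.93, 9.04, 8.42 and 8.54 on the saline arrays. It was again low on the LPS arrays alone (difference 1.32, SE 0.29, adjusted p = 0.0206). Cobll1, Diras2 and Csnk2a2, a protein with an actin-binding domain, a small GTPase and a catalytic subunit of casein kinase 2, had LPS effects of -1.70, -1.44 and -0.81. Diras2 lost its call in the difference in 13 of 18 fits without 1 array and under the block (adjusted p = 0.13). Chrna7 lost it without MCAO array 1, sham array 2 or saline array 3, Tenm4 without MCAO array 1 or sham array 4, and Csnk2a2 without saline array 4. Under the block their adjusted p was 0.0798, 0.0746 and 0.0711.

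Of 164 genes that rose after both insults, 4 differed between them (2.44%). S100a10, the annexin 2 partner p11, had 11.63, 11.03, 11.15, 11.71 and 11.40 on the MCAO arrays, against 5.17, 5.61, 7.64 and 5.81 on the sham arrays, and 7.36, 7.10, 8.28, 6.98 and 7.29 on the LPS arrays, against 5.36, 5.49, 5.83 and 4.46 on the saline arrays. Both insults raised it on every array, by 5.33 and 2.11 (difference 3.21, SE 0.68, adjusted p = 0.0155). Its probe set can bind related sequences, and the call was lost with such probe sets left out, as were those of Cotl1 and Fmo5. Tnfrsf12a, the receptor of the cytokine TWEAK, rose by 3.45 and 1.43 (difference 2.02, adjusted p = 0.0453, lost in 11 of 18 fits without 1 array, and 0.13 under the block).

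Fbln5, the elastic fibre protein fibulin 5, was the clearest gene in the other direction. It had log2 levels of 9.33, 9.46, 10.38, 9.25 and 9.77 on the MCAO arrays, against 7.99, 8.17, 7.89 and 7.71 on the sham arrays, and 11.33, 10.87, 11.11, 10.89 and 10.63 on the LPS arrays, against 6.81, 6.99, 6.51 and 7.31 on the saline arrays. Both insults raised it without overlap, by 1.69 and 4.06 (difference -2.37, SE 0.50, adjusted p = 0.0146), and sham was 1.04 above saline (adjusted p = 0.1). Rras, a small GTPase, rose by 0.62 after MCAO and by more after LPS, and its difference of -0.97 lost its call in 13 of 18 fits without 1 array and under the block (adjusted p = 0.0921).

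Opposite moves were called in 7 genes. Loxl1, an enzyme that crosslinks elastin, had 9.22, 9.01, 8.02, 9.12 and 8.55 on the MCAO arrays, against 7.18, 6.66, 7.54 and 6.82 on the sham arrays, and 7.25, 6.73, 6.91, 5.73 and 7.92 on the LPS arrays, against 8.57, 8.63, 8.03 and 8.31 on the saline arrays. It rose by 1.74 after MCAO and fell by 1.48 after LPS, with no overlap in either pair. Saline was also 1.34 above sham (adjusted p = 0.0391), and the LPS arrays lay near the sham level. Phlda1, a pleckstrin homology protein linked to growth factor signalling, rose by 1.65 and fell by 0.97 (difference 2.62, SE 0.31, adjusted p = 4.85e-05).

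The 5 that fell after MCAO and rose after LPS were Kcnq3, Maob, Retsat, Cmtm3 and Ccdc51. Kcnq3 encodes a potassium channel subunit of the M current. It had 8.70, 7.95, 9.01, 8.70 and 8.89 on the MCAO arrays, against 8.75, 9.72, 9.81 and 9.33 on the sham arrays, and 9.49, 9.04, 9.43, 9.45 and 9.49 on the LPS arrays, against 7.85, 8.14, 8.13 and 8.14 on the saline arrays. The rise after LPS separated all arrays, the fall after MCAO did not, and sham was 1.34 above saline (adjusted p = 0.00112). Retsat, retinol saturase, had 9.34, 9.70, 9.97, 9.53 and 9.95 on the MCAO arrays, against 10.97, 10.95, 10.44 and 10.83 on the sham arrays, and 11.23, 10.72, 10.46, 10.51 and 11.13 on the LPS arrays, against 10.36, 10.15, 9.65 and 10.13 on the saline arrays. Both pairs were apart on every array (difference -1.83, SE 0.29, adjusted p = 0.00085). Maob, monoamine oxidase B of astrocytes, fell by 1.05 after MCAO and rose by 0.93 after LPS. In 4 of these 5 genes, sham was called above saline.

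The 8 genes with neither effect called had small moves of opposite sign. They were Arfgap1, a regulator of Golgi traffic, which was higher, and Sort1, Fmo5, Cyp27a1, Asl, Kctd5, Mtus1 and St3gal4, which were lower. Arfgap1 had effects of 0.49 after MCAO (adjusted p = 0.0749) and -0.63 after LPS (adjusted p = 0.0523), with a difference of 1.12 (SE 0.25, adjusted p = 0.0233). Sort1, the sorting receptor sortilin, had -0.51 (adjusted p = 0.0652) and 0.62 (adjusted p = 0.0579), with a difference of -1.12 (SE 0.25, adjusted p = 0.0229). Each call was lost in 5 of 18 fits without 1 array, among them MCAO array 1, sham array 2 and saline arrays 2 and 4 for both genes, sham array 4 for Arfgap1 and sham array 1 for Sort1. Under the block the adjusted p was 0.0861 for Arfgap1, 0.0857 for Sort1 and 0.0828 for Fmo5.

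The study drew its own reactive astrocyte lists from these very samples, so their direction is not independent evidence. Of 12 MCAO-type (A2) genes, 12 rose after MCAO, 4 rose after LPS, and 4 were called higher in the difference, Clcf1, S100a10, Sphk1 and B3gnt5. B3gnt5 lost its call in 12 of 18 fits without 1 array and under the block (adjusted p = 0.124). The list's mean log2 level on sham array 3 was 7.58, against at most 6.36 on the other sham arrays, and 5 were called without that array. Ptx3, pentraxin 3, had 13.58, 13.26, 12.99, 13.21 and 12.19 on the MCAO arrays, against 7.33, 7.09, 8.38 and 7.56 on the sham arrays, and 13.34, 11.01, 8.63, 8.25 and 7.37 on the LPS arrays, against 9.33, 6.27, 6.77 and 6.61 on the saline arrays. LPS array 1 reached the MCAO level and LPS arrays 3, 4 and 5 lay within the saline range, and its difference of 2.98 had an SE of 1.25 (adjusted p = 0.28). Tgm1, Emp1 and Ptgs2, a transglutaminase, a membrane protein and cyclooxygenase 2, had differences of 3.30, 3.37 and 3.49 (adjusted p = 0.077, 0.0637 and 0.1).

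Of 9 LPS-type (A1) genes, 5 rose after MCAO, 8 rose after LPS, and 2 were called lower in the difference, Fbln5 and Amigo2. Their mean log2 level on saline array 3 was 8.95, against at most 7.08 on the other saline arrays, and 3 were called lower without that array, and 1 without sham array 3. Gbp2 rose by 4.10 after MCAO and by 4.19 after LPS, and its difference of -0.09 (adjusted p = 0.982) ranged from -1.03 to 0.54 without 1 array. Amigo2, a synaptic adhesion protein, had 10.62, 10.82, 11.21, 10.79 and 10.94 on the MCAO arrays, against 9.74, 10.57, 10.03 and 10.09 on the sham arrays, and 13.38, 12.38, 10.78, 10.90 and 10.32 on the LPS arrays, against 9.23, 7.64, 8.21 and 7.53 on the saline arrays. Sham was 1.96 above saline (adjusted p = 0.0225), the MCAO arrays lay above sham by 0.77 (adjusted p = 0.367), and the injured groups differed by -0.68 (adjusted p = 0.298). Its difference was -2.63 (adjusted p = 0.0425), a call lost in 12 of 18 fits without 1 array and under the block (adjusted p = 0.131).

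Of 13 pan-reactive genes, 13 rose after MCAO and 11 after LPS, and Cd44 alone was called in the difference. Without LPS array 5 or without saline array 3 it was not called, and without LPS array 5 another gene of the list was called lower. Sham array 3 had a mean log2 level of 9.51 over these genes, against at most 8.01 on the other sham arrays. Lcn2, an iron-binding acute phase protein, had effects of 7.83 after MCAO and 8.46 after LPS (difference -0.63, SE 0.97, adjusted p = 0.856). Its difference ran from -0.96 to 0.00 without 1 array. Gfap had 1.69 and 1.87 (difference -0.19, SE 0.57, adjusted p = 0.932, and -0.62 to 0.01 without 1 array), and Vim 3.12 and 2.21 (difference 0.91, SE 0.70, adjusted p = 0.661). Serpina3n, a protease inhibitor, had 3.19 and 4.95, and its difference of -1.77 (SE 0.47, adjusted p = 0.0581) was called without LPS array 5 (-1.86, adjusted p = 0.0376).

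Later surgery arrays, 3 MCAO and 3 sham at each time, gave a reading of the MCAO effect in other samples. They were not in the contrast of the difference, but they entered its variance, the filter and the choice of probe sets. They are therefore not independent of which genes were called. Of the 109 higher genes, 100 were positive at 3 days, against 51.8% of all genes, with a median of 0.86, and 22 were called higher, against 0.61% of all genes. At 7 days 86 were positive, against 48.8%, with a median of 0.30 and 0 called by limma, where 4 genes (0.0254%) were called in the whole table. Hmga2 stayed 2.56 above sham at 3 days (adjusted p = 0.0169) and Fosl1 2.14 (adjusted p = 0.00665), while Hmox1 had 1.12 (adjusted p = 0.139). S100a10 had 3.66 at 3 days (adjusted p = 0.00355). Of the 110 lower genes, 22 were positive at 3 days, with a median of -0.30 and 2 called lower, against 0.0636% of all genes, and 25 at 7 days, with a median of -0.12. The series holds LPS and saline arrays at 1 day only, so the difference itself was read at 1 day alone.

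**Figure D5:**
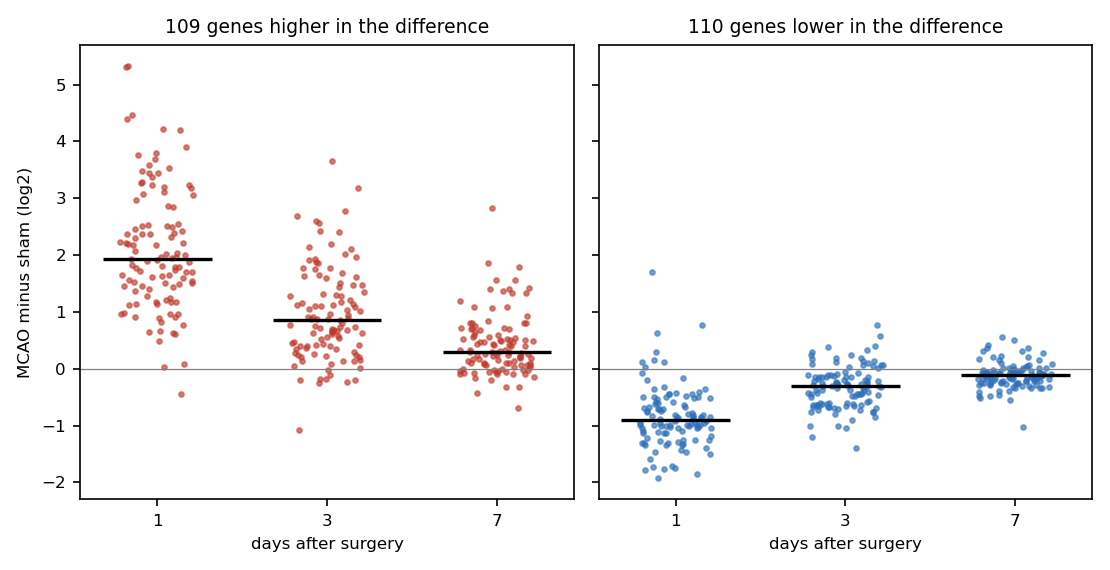
MCAO minus sham (vertical axis, log2) at 1, 3 and 7 days for the 109 genes higher and the 110 genes lower in the difference of 1 day, with a black line at the median. The medians of the higher genes were 1.93, 0.86 and 0.30, and those of the lower genes -0.90, -0.30 and -0.12.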

How the data were processed

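Astrocytes sorted from mice were profiled on Affymetrix expression arrays. The deposited values are intensity values on a linear scale, whole numbers from 9 to 35553, made with RMA per the submitters' processing notes; its version and settings are not given in the sources used here. Their log2 was taken here from the deposited intensity values, and no further normalisation was applied. RMA shares information across arrays, so an array that stands apart can move the others.

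Of 45037 probe sets, 34945 had 1 gene symbol, 932 several and 9160 none in the platform annotation. Each gene was represented by its probe set with the highest mean over 30 arrays. Genes with log2 of at least 5 (intensity 32) on 3 arrays were kept, 15726 of 18193. limma 3.58.1 in R 4.3.3 fitted 8 groups over 30 arrays (22 residual and 4.55 prior degrees of freedom). Effects and their difference were tested as contrasts, two-sided, with Benjamini-Hochberg adjustment over all genes and a threshold of 0.05. The number of arrays limits the precision. The fit was also run on simulated data. These gave each gene the same spread in all groups, so they do not show how the fit behaves when groups vary unequally.

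The genes, gene lists and tests were chosen with earlier results of these data known. Named genes were, among called genes whose MCAO and sham or LPS and saline arrays did not overlap, those with the largest difference in each class, up to 3 called members of each gene group, Gfap, Vim, Lcn2, Serpina3n and Aldh1l1, and the measured members of the study's 3 lists. Of 568 listed genes, 504 were measured. Other genes named from a gene group (Osmr, Bcl3, Lif, Socs3, Cryab, Gdf10, Fos, Jun, Oasl2, Fkbp5, Slc1a2, Slc1a3, Plaur, Col6a1) were chosen after their values were seen. Promoters were read with Python 3.11.15 from a RefSeq table.

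Whether numbers in the labels pair arrays was checked by the correlation of deviations from the group means. The sample numbers of the descriptions gave 0.234, 0.191, 0.5 and 0.164 for the 4 MCAO and sham pairs, so they were taken to pair the surgery arrays. Title numbers gave 0.15, -0.105, -0.236 and -0.114 and were not. The main fit held no block, so its calls, SE and p-values do not use the pairing of the surgery arrays. Alternatives covered scaling, the filter, the probe set rule, the arrays fitted, array weights, blocks, the threshold and each array left out. Fits on Xist level and on number ranges were chosen after seeing the data.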

Additional observations from a re-analysis of the deposited data

Results flagged for a closer look

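Outlying single arrays were found in 16 of 212 gene and group combinations by Dixon's test, where chance gives about 1 in 20. LPS array 5 stood apart in median intensity, at 94. The other values are log2 levels of 1 array far from the rest of its group. On MCAO arrays these were Lgi1 at 7.71 and Ccdc51 at 7.65 on array 1, and Tnc at 8.58 on array 5. On sham arrays these were Ereg at 4.25 and Sort1 at 12.39 on array 1, Rras at 9.92 on array 2, and Nat8f4 at 10.16 and Flnc at 7.86 on array 3. On LPS arrays these were Chac1 at 7.53 and Bdnf at 8.05 on array 1, Kcnq3 at 9.04 on array 2, Tapbp at 11.26 on array 3 and Rras at 10.81 on array 4. On saline arrays these were Kcnq3 at 7.85 and Pnpla7 at 11.69 on array 1, and Scel at 6.27 on array 2.

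The effects of the 2 insults differed by the test of the difference itself in 109 genes higher and 110 genes lower for stroke, which are the genes described above.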

How the results depend on the processing

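Alternative fits were not read gene by gene for some of the called genes named above. These were Tubb6, Nes, Cyp27a1, Asl, Kctd5, Mtus1, St3gal4, Plaur, Col6a1, Tfpi2, Lmna, Myo1c, Cenpt and 6430553K19Rik. Among those read, no called gene changed the sign of its difference under any alternative run. Differences that were not called did so in some, among them Gfap (0.16 with the mean of the probe sets, 0.66 without shared probe sets), H2-D1 (-0.60 and -0.56 with the same settings) and Gbp2 (0.02 after median centring). With all arrays, 109 genes were higher and 110 lower in the difference, and the causes of the changes below were not tested. Leaving out 1 array at a time gave 55 to 229 higher and 34 to 271 lower genes. Rises after MCAO alone ranged from 49 to 209, falls after MCAO alone from 18 to 170, rises after LPS alone from 4 to 74 and falls after LPS alone from 2 to 16. MCAO calls ranged from 1367 to 2906, LPS calls from 225 to 990, and genes of the difference with sham and saline apart from 10 to 133.

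The values below follow 1 order, with those that moved by 1.5 times or less left out: higher, lower, rise after MCAO alone, fall after LPS alone, rise after LPS alone, fall after MCAO alone, MCAO calls, LPS calls, and controls apart. Quantile normalisation gave 44 falls after MCAO alone. The 18 arrays of 1 day alone gave 70 higher, 22 lower, 65, 1, 5 and 13 in the classes, 280 LPS calls and 15 with controls apart. Array weights gave 711 higher, 1412 lower, 549, 72, 297 and 859 in the classes, 6161 MCAO calls, 1660 LPS calls and 1254 with controls apart. An adjusted p under 0.01 gave 40 higher, 15 lower, 39, 1, 5 and 10 in the classes, 1096 and 197 calls and 5 with controls apart. The replicate block by description numbers, which pairs the surgery arrays, left out MCAO array 1 and gave 54 higher, 34 lower, 50, 1, 7 and 23 in the classes, 1218 MCAO calls and 3 with controls apart. Among the named genes read gene by gene, it ended no call other than those given with its adjusted p above. Title numbers, which do not pair them, gave as a block 175 higher, 254 lower, 159 rises after MCAO alone, 51 rises after LPS alone, 172 falls after MCAO alone and 185 with controls apart. Among the named genes read, title numbers ended the calls of Tapbp, Cd44, B3gnt5 and Diras2. With either block, the sham level is that of a single number and not the group mean. The counts of controls apart under a block are therefore of another contrast than in the main fit.

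Of fits chosen after seeing the data, the 18 arrays without LPS array 5 gave 180 higher, 166 rises after MCAO alone and 80 with controls apart. Low-Xist arrays alone, with 2 LPS arrays and 1 saline array assumed to vary like the other groups, gave 58 lower, 14 falls and 35 rises after LPS alone, 8 falls after MCAO alone, 4068 MCAO calls and 82 with controls apart. The number range as covariate gave 187 higher, 198 lower, 160, 11, 34 and 139 in the classes and 82 with controls apart. Its saline level is that of the numbers 3 to 6 and not the group mean, so its count of controls apart is also of another contrast. Injection arrays numbered 3 to 6 alone gave 60 higher, 26 lower, 53, 2, 13 and 7 in the classes and 23 with controls apart. Those numbered 13 to 16 alone gave 195 higher, 259 lower, 168 rises after MCAO alone, 8 rises after LPS alone, 204 falls after MCAO alone, 64 LPS calls and 69 with controls apart.

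Levels near the filter of log2 5 limit fold sizes, as in Hmga2, Clcf1 and Il6. Injection arrays varied more than surgery arrays, while the fit gave each gene 1 variance.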
